A study of Mus musculus with 9 samples.

Results

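Of the 66066 regions at which PPARγ was bound in iBAT, 630 had PPARγ counts that followed a 24-h cosine with its crest around ZT0, the start of the light phase. They were chosen by a rule on the counts themselves. Counts were divided by size factors, put on the log2 scale and fitted with a 24-h cosine, and a peak was kept when its mean raw count was at least 100, its amplitude (the distance from the mean to the crest of the cosine) at least 0.3, the R2 of the fit at least 0.7, and its phase (the time of the crest) from 21 h to before 3 h. These 630 dawn-phase peaks were 1.21% of the 52193 peaks with a sufficient mean count, called the tested peaks below. As all 8 libraries entered the rule, the amplitude, the phase and the levels over time are given as descriptions, with no test.

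PPARγ ChIP-sequencing was performed on iBAT, the brown fat between the shoulder blades, of 10-week-old male C57BL/6J mice at 8 time points, every 3 h from ZT0 to ZT21 under a 12-h light phase. By the labels and the paper's ChIP methods, tissue was pooled from 8 mice at each time point, while the paper's animal section gives 4. The labels give no difference between the groups other than the time of tissue collection. 1 library was sequenced per time point, so the spread between pools could not be estimated, and the errors given here are standard errors from the residuals of the cosine (5 residual degrees of freedom) or exact Poisson 95% intervals for counting error. Between 29572225 and 34264812 reads per library fell in peaks. Peaks near genes of brown adipocytes had mean normalized counts of up to 10522. None of the 6 macrophage and leukocyte marker genes was the nearest gene of a peak with a mean count of at least 100. Markers of other cell types did have such peaks, with highest means of 2420 for skeletal muscle, 1342 for endothelial and mural cells and 790 for nerve.

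PPARγ is a nuclear receptor that governs adipocyte differentiation and lipid storage, and binds with RXR to a direct repeat of the hexamer AGGTCA spaced by 1 base, the DR1 element. The same hexamer, preceded by an AT-rich stretch, makes the ROR response element (RORE), at which the ROR receptors activate and the REV-ERB receptors repress transcription. REV-ERB levels are known to be high in the light phase and low around the end of the dark phase, and Arntl, which encodes BMAL1, Npas2, Clock, Nfil3 and Cry1 are known genes of this arm of the clock. DBP, TEF and HLF act through another element, the D-box, and BMAL1 with CLOCK or NPAS2 through the E-box.

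The ROREs of the dawn-phase peaks are shown first, as these letters were more frequent in them than in peaks of other phases. RORE was searched on both strands of the central 300 bases of each peak, by the 10 letters in capitals in the sites that follow, with any base allowed at the third of them. Its last letters are the hexamer AGGTCA, which DR1 shares. The 10 dawn-phase peaks with a RORE and the largest amplitudes carried these sites, named by the gene they lie in or the nearest gene, each on its own strand with 6 flanking bases on both sides and the RORE in capitals (RefSeq, GRCm38.p6, the build of the deposited peaks; positions are those of the capitals).
Dnajc1, chr2:18265905-18265914, minus strand: atttccAAGTAGGTCActaagg
Iyd, chr10:3516655-3516664, minus strand: aagaagAACTAGGTCAcagaag
Pdcl3, chr1:39025336-39025345, plus strand: aaaagaAAGTAGGTCAgtgggt
Fibin, chr2:110441754-110441763, minus strand: ctttccAACTAGGTCAaactcc
Lhfpl2, chr13:94100526-94100535, minus strand: cttagtAAGTAGGTCAaacgat
Slc8a1, chr17:81533252-81533261, minus strand: gagagaAACTAGGTCAaagctt
Tbc1d8, chr1:39393768-39393777, plus strand: gtcagaAAGTAGGTCActtgga
Larp4b, chr13:9058880-9058889, minus strand: atctgaAATTAGGTCAatggta
Gm15501, chr7:93136292-93136301, minus strand: taatgaAAGTAGGTCAtgggtg
5730409E04Rik, chr4:126604289-126604298, plus strand: gaacaaAACTAGGTCAcaggct

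Whole windows are given for 3 of these peaks, with RORE and AGGTCA matches in capitals on the plus strand. The Dnajc1 window lies in intron 8 and held a RORE close to a second AGGTCA. The Iyd window lies between genes and held 3 ROREs in tandem, separated by the same few letters. The Lhfpl2 window lies in intron 1 and held 1 RORE.
Dnajc1, chr2:18265893-18266192: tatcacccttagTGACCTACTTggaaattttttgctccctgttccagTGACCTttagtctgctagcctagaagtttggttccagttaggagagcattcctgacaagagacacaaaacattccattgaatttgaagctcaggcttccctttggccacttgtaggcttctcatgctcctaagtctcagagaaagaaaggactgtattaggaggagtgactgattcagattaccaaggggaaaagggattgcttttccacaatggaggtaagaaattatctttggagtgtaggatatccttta
Iyd, chr10:3516418-3516717: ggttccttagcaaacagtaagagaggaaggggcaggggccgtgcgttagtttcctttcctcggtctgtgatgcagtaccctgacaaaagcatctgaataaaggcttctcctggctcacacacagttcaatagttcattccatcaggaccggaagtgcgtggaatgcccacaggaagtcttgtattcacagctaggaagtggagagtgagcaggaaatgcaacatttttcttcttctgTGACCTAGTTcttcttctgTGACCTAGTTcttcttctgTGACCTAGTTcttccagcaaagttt
Lhfpl2, chr13:94100340-94100639: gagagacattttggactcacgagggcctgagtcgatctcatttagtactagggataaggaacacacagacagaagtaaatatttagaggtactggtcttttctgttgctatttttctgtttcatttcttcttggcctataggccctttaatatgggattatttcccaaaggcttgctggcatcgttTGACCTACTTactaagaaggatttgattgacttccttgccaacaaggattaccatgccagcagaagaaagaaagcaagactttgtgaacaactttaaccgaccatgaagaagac

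A window with a large amplitude and no RORE, in intron 2 of Npas2, is given for comparison, with an AGGTCA on the minus strand in capitals.
Npas2, chr1:39267980-39268279: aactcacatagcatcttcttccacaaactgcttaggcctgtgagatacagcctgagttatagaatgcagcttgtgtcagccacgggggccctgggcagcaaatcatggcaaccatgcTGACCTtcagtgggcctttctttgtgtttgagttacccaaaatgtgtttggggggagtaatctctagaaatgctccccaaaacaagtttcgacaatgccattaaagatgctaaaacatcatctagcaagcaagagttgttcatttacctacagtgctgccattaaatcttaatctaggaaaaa

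Dawn was the least common of the 4 phase classes. The same thresholds were passed by 5283 peaks at any phase (10.1% of 52193), of which 1872 (3.59%) had a midday phase from 3 h to before 9 h, 1516 (2.9%) a dusk phase from 9 h to before 15 h, and 1265 (2.42%) a midnight phase from 15 h to before 21 h. Without any threshold on amplitude or fit, 10883 peaks (20.9%) had a fitted phase from 21 h to before 3 h, and 1117 (2.14%) had an amplitude of at least 0.3 with such a phase. The count of 630 depended on single libraries, as 1327 peaks met the rule when the ZT3 library was left out, of which 549 were among the 630. Of the 630, 286 (45.4%) met the rule whichever single library was left out.

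Within the dawn-phase peaks the amplitude was 0.41 at the median, from 0.30 to 1.48, with a median standard error of 0.084. The highest normalized count was 1.93 times the lowest at the median and 6.98 times at most. With all 8 libraries the phase was earlier than ZT0 for most of them, with 155 peaks between 21 and 22 h, 140 between 22 and 23 h and 97 between 23 and 24 h, against 76 between 0 and 1 h, 60 between 1 and 2 h and 102 between 2 and 3 h. The phase had a median standard error of 0.777 h, so that neighbouring bins are not resolved for a single peak. The median phase was 0.82 h before ZT0. This order rested on single libraries, as the median phase of the peaks that met the rule was 0.18 h after ZT0 without the ZT0 library and 0.67 h after ZT0 without the ZT3 library.

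Over time, the dawn-phase peaks fell from ZT0 to ZT12 and rose again through the dark phase. The highest count was at ZT0 in 302 peaks (47.9%), at ZT21 in 142 and at ZT3 in 89, and the lowest was at ZT12 in 278, at ZT15 in 185 and at ZT9 in 144. The median peak was at 1.30 times its own mean at ZT0, 0.759 times at ZT12 and 1.23 times at ZT21. In 597 of 630 peaks both ZT21 and ZT0 were above all of ZT9, ZT12 and ZT15, which follows largely from the rule. Dawn-phase peaks held 0.993% of all reads in peaks at ZT0 and 0.568% at ZT12.

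**Figure D1:**
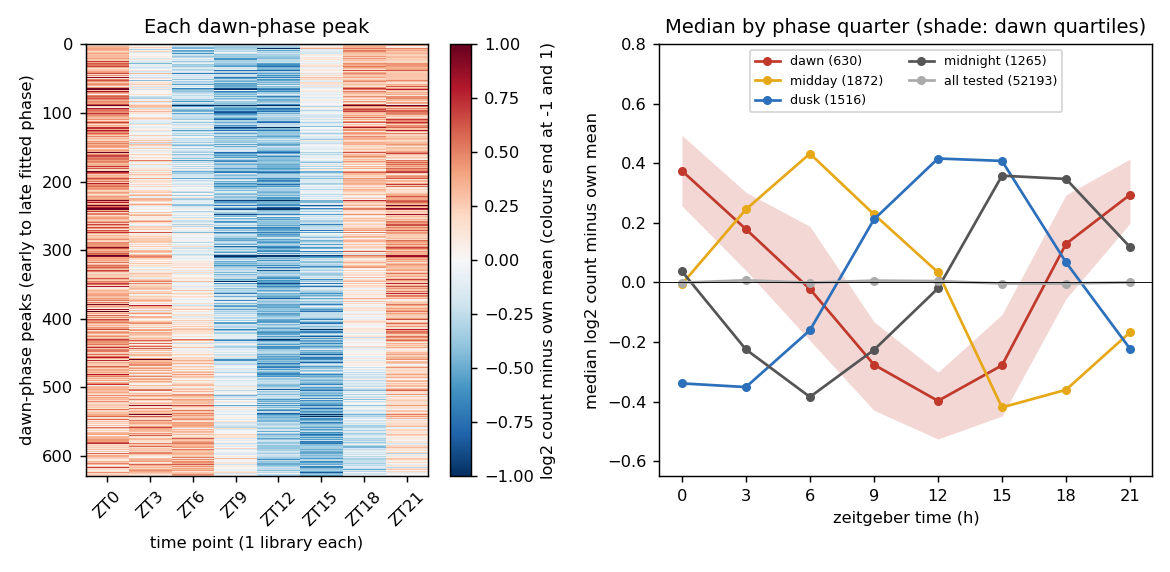
Left, each of the 630 dawn-phase peaks as a row, ordered by fitted phase, with the log2 normalized count at each time point minus the mean of the row in colour. Right, the median of the same value in each phase class over zeitgeber time, with the quartiles of the dawn-phase peaks shaded. Dawn-phase peaks were highest at ZT0 and lowest at ZT12, and midday-phase peaks were highest at ZT6. The median of all 52193 peaks was flat, which follows largely from the division by size factors, so a change common to most peaks would not show.

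Other properties of the libraries moved over the day as well. Reads in the strongest 10% of peaks made up 44.2% of the ZT15 library and 48.1% of the ZT6 library, the extremes of the day, and count-weighted GC content ranged from 49.3% to 49.6% and the share of reads in peaks at start sites from 28.0% to 29.5%. At ZT0 and ZT12 the first of these was 45.7% and 46.7%. The part of these properties in the dawn-phase pattern was not tested.

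The largest amplitude was found in Sorcs2, which encodes a receptor of the sortilin family. Its peak had normalized counts of 780, 377, 138, 135, 112, 282, 632 and 666 from ZT0 to ZT21. The count was thus high at ZT18, ZT21 and ZT0 and low from ZT6 to ZT12, with an amplitude of 1.48 ± 0.143 (SE, 8 libraries) and a phase of 21.55 h. The counting intervals of the highest and lowest library, 726 to 837 and 91.7 to 135, were far apart.

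Npas2, a paralogue of Clock whose product pairs with BMAL1, had the next largest amplitude. The peak in its intron 2 (chr1:39267400-39268861) had normalized counts of 709, 397, 261, 154, 140, 155, 426 and 529 from ZT0 to ZT21, with an amplitude of 1.17 ± 0.113 and a phase of 23.2 h. Here the level fell steadily through the light phase and was lowest from ZT9 to ZT15. At the start site of Npas2 a stronger peak (chr1:39192309-39194709) went from 2460 at ZT0 through 1562, 930, 853, 841 and 765 at ZT15 to 1442 and 2347 at ZT21. Its amplitude was 0.86 ± 0.119 with a phase of 22.9 h. This peak covers the 250 bases before the annotated start, in which no RORE was found.
Npas2 promoter, chr1:39194022-39194271, plus strand: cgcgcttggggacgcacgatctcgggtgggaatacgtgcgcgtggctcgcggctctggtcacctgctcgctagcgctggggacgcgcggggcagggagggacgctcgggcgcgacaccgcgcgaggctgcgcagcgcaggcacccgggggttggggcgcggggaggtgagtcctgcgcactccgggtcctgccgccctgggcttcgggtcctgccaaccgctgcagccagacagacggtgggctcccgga

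Most peaks around Npas2 followed the same time course. Of the 14 peaks with a mean count of at least 100 between chr1:39025077 and chr1:39394501, a span of 369 kb, 12 were dawn-phase peaks, with amplitudes from 0.54 to 1.17 and phases from 2.39 h before to 0.313 h after ZT0. They covered the sequence upstream of Npas2, the start site, introns 2, 3, 5 and 7, and intron 6 of Tbc1d8, a neighbouring gene. The 2 peaks in between that were not members lay next to Rpl31, a ribosomal protein gene, and in its intron 1, with amplitudes of 0.08 ± 0.053 and 0.11 ± 0.066. Normalized counts at the first of these stayed between 470 and 578 over all 8 libraries. Beyond Tbc1d8 intron 6, none of the other 5 peaks within 200 kb of Npas2 met the rule. ROREs lay in the central window of 2 of the 12, the intergenic peak near Pdcl3 and the peak in Tbc1d8, at the opposite ends of this span.

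At Arntl, the gene of BMAL1, 5 of the 12 peaks nearest to it were dawn-phase peaks, all within introns 1 and 2. The largest amplitude was in intron 1 (chr7:113214104-113215199), with normalized counts of 306, 174, 99.9, 85.7, 101, 152, 260 and 213 from ZT0 to ZT21, an amplitude of 0.86 ± 0.125 and a phase of 21.4 h. The strongest of the 5, in intron 2 (chr7:113241641-113243254), went from 1596 at ZT0 to 831 at ZT9 and 1648 at ZT18, with an amplitude of 0.49 ± 0.059. The phases of the 5 peaks lay between 21.3 h and 22.9 h. None of the 5 held a RORE in its central window. The bases before the annotated starts of Arntl, Clock, Nfil3 and Cry1, searched as for Npas2, held no RORE either. Another 4 peaks of Arntl passed the amplitude and fit thresholds with a midnight phase, and the peak over the start site (chr7:113206520-113208710) had a phase of 23.1 h but an amplitude of only 0.24 ± 0.043.

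**Figure D2:**
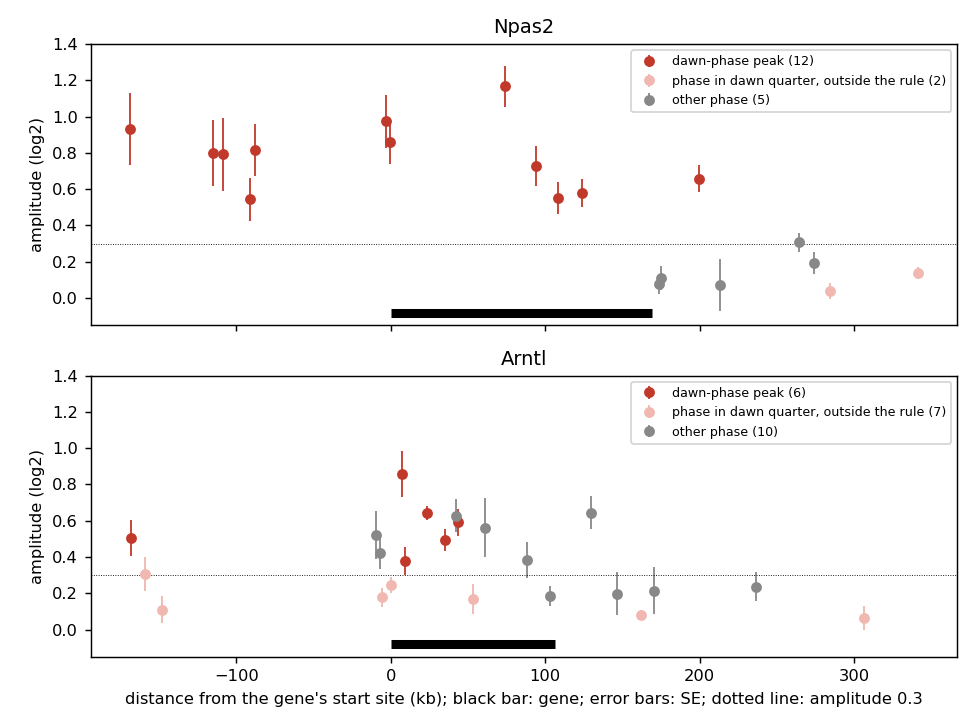
Cosine amplitude (log2, with its standard error) of each peak with a mean count of at least 100 against its distance in kb from the start site of Npas2 (top) or Arntl (bottom), with the gene as a black bar. The 12 dawn-phase peaks around Npas2 (red) lay on both sides of its start site, with 2 flat peaks before the last of them, and around Arntl 6 dawn-phase peaks, of which 5 are nearest to Arntl, were mixed with peaks of other phases.

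The peaks whose ROREs are printed above were chosen for their large amplitudes, so their steep time courses follow from that choice. Members with a RORE went down to an amplitude of 0.305, near Ttk. The peak in intron 8 of Dnajc1, a chaperone of the endoplasmic reticulum, had normalized counts of 384, 294, 213, 97.5, 107, 130, 271 and 381 from ZT0 to ZT21, with an amplitude of 1.04 ± 0.094 and a phase of 23.2 h. The peak near Iyd, the iodotyrosine deiodinase, had 412, 221, 160, 130, 98.4, 147, 254 and 359, with an amplitude of 0.94 ± 0.091. Both were highest at ZT0 and ZT21 and lowest around ZT9 or ZT12. At Lhfpl2, a tetraspan membrane protein, counts of 522, 335, 203, 176, 184, 258, 414 and 524 gave an amplitude of 0.86 ± 0.035 with the highest R2 of all 630 peaks, 0.992. Near Fibin, a secreted protein, the mean was only 103.6 and the counts went from 206 at ZT0 to 54.2 at ZT9 and 131 at ZT21. The peak near Gm15501 had the latest fitted crest of the 10, at 2.96 h, with 276 at ZT0, 200 at ZT3, 273 at ZT6 and 106 at ZT15. Its count at ZT3, the time point nearest to the fitted crest, was thus below those at ZT0 and ZT6.

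Other members with large amplitudes held no RORE in the central window. In intron 2 of Ttc28, a protein with tetratricopeptide repeats, a strong peak had 1345, 2381, 1298, 913, 670, 472, 754 and 1475 normalized counts from ZT0 to ZT21, with an amplitude of 0.92 ± 0.151 and a phase of 2.12 h. It was highest in the ZT3 library alone, at 2381, and the amplitude without that library was 0.81. The central window of this Ttc28 peak consists largely of short repeated units, with a GC content of 64.3%. The part of this repeat in the counts was not tested. In intron 1 of Pdzd2, a protein with PDZ domains, counts of 618, 535, 366, 251, 203, 230, 461 and 642 fell and rose smoothly, with an amplitude of 0.86 ± 0.075 and a phase of 23.5 h. The weaker of the 2 peaks upstream of Pik3r1 went from 295 at ZT0 to 65.0 at ZT9 and 233 at ZT21, with an amplitude of 0.97 ± 0.123, and the stronger one, next to it, from 2304 to 1239 and 1919, with an amplitude of 0.38 ± 0.053. Neighbouring peaks of similar phase thus differed in amplitude.

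Among the gene lists, the activators of the clock held the highest share of dawn-phase peaks. Peaks were assigned to the nearest curated start site, and 8 of the 16 peaks assigned to Arntl, Npas2 and Clock were members (50.0%, against 1.21% of all peaks tested), 5 at Arntl and 3 at Npas2. The median amplitude of these 16 peaks was 0.54, against 0.16 for all peaks tested. Arntl and Npas2 both hold several neighbouring peaks, which are not independent. None of the 8 members assigned to them held a RORE in its central window. The only peak of Clock had a phase of 21.6 h and an amplitude of 0.13 ± 0.030. None of the 55 peaks at the Per, Cry, REV-ERB, ROR, Bhlhe40, Bhlhe41 and Ciart genes was a member. At a share of 1.21%, a list of this size would hold few members, so this is not read as a result about these genes. Rhythmic at other phases were 15 of them (6 midday, 5 dusk and 4 midnight). Over all tested peaks, 10.1% were rhythmic at any phase, with 3.59% midday, 2.9% dusk and 2.42% midnight. Near Cry1, a known RORE gene, 0 of 12 peaks within 200 kb of the gene were members, which at a share of 1.21% is not read as a result. Some of the 12 lay just outside the limits of the rule. The peak in intron 1 of Cry1 had normalized counts of 994, 552, 386, 405, 458, 597, 996 and 1000 from ZT0 to ZT21, with an amplitude of 0.77 ± 0.074 and a phase of 20.6 h, before the limit of 21 h. A peak in intron 2 had an amplitude of 0.54 ± 0.059 at 20.7 h. A peak 5.18 kb upstream of the start site had an amplitude of 0.48 ± 0.144 and a phase of 22.8 h, with an R2 of 0.692.

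Among the 33 peaks of the D-box factors, 1 was a dawn-phase peak (3.03%, against 1.21% of all tested peaks). It was assigned to Nfil3, a repressor at D-boxes, and lay 145048 bases upstream of its start. The peak lies in intron 4 of Ror2, a receptor for Wnt signals. Its normalized counts were 706, 814, 755, 651, 508, 502, 578 and 767 from ZT0 to ZT21, with an amplitude of 0.33 ± 0.059. This was a shallow rhythm, highest at ZT3 and lowest at ZT15. The other 11 rhythmic peaks of the D-box factors had midday or dusk phases, while 10.1% of all tested peaks were rhythmic at any phase.

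The lists of lipid handling genes held no dawn-phase peak. There were 0 members among 107 peaks of de novo lipogenesis, 87 of triglyceride synthesis and lipid droplets, 54 of intracellular lipolysis, 92 of the LPL pathway and fatty acid uptake, or 56 of fatty acid oxidation. The same held for 64 peaks at PPAR and RXR genes, 106 of the glucocorticoid response, 52 of adipokines and secreted factors and 21 of the heat shock and unfolded protein response. The share over all tested peaks was 1.21%, at which lists of these sizes would hold few members. Their absence is therefore not read as a result about these genes. Cidea, a lipid droplet gene with a member assigned to it, was placed in the thermogenic list and not in these.

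The lists of brown fat function held few members, at shares of 1.37% to 2.44% beside 1.21% of all tested peaks. Among thermogenic genes, 2 of 82 peaks (2.44%) were members, 1 near Adrb3, the receptor for noradrenaline in adipocytes, and 1 for which Cidea, a lipid droplet protein, had the nearest start site, 25400 bases away. The latter peak lies in intron 7 of Impa2. In the list of brown adipocyte markers, 1 of 67 peaks (1.49%) was a member, the same peak assigned to Cidea. The peak near Adrb3 (chr8:27222582-27225187) had normalized counts of 723, 555, 616, 407, 350, 447, 555 and 551 from ZT0 to ZT21, with an amplitude of 0.40 ± 0.096. In the glucose uptake and insulin list, 3 of 219 peaks (1.37%) were members. Of these, 2 lay side by side, 244543 and 246677 bases upstream of Pik3r1, a regulatory subunit of PI3-kinase, and 1 in intron 1 of Tbc1d4, which controls the movement of GLUT4. The peak in Tbc1d4 (chr14:101596211-101597910) had 1306, 1222, 833, 760, 670, 818, 1019 and 1243 normalized counts from ZT0 to ZT21 (amplitude 0.48 ± 0.037, phase 23.2 h). Levels there were lowest at ZT12 and close to each other at ZT21, ZT0 and ZT3.

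Further lists held 1 to 3 members each, beside the 1.21% of all tested peaks. They were 3 of 129 peaks (2.33%) at adipogenic factors (2 near Klf4 and 1 in intron 2 of Zfp423, a marker of preadipocytes), 1 of 134 (0.746%) in adrenergic and cAMP signalling (intron 5 of Pde4b, which degrades cAMP) and 2 of 115 (1.74%) in the extracellular matrix (near Col1a1 and Col4a1). The Pde4b peak was the only one of these 6 with a RORE in its central window, and its counts went from 189 at ZT0 to 82.0 at ZT12 and 184 at ZT21. The markers of other cell types held 3 members among 24 peaks (12.5%) of the endothelial and mural list, all of them between 91690 and 179842 bases upstream of Cdh5, the cadherin of endothelial cells, and none among 5 peaks of skeletal muscle and 5 of nerve. Another 7 of the 24 endothelial and mural peaks were midday-phase peaks, a class that held 3.59% of all tested peaks. At the 3 Cdh5 peaks the mean normalized counts were 509, 295 and 112. In a whole tissue, a change in the number of cells of a type and in the binding per cell cannot be told apart.

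The strongest dawn-phase peaks lay elsewhere. The highest mean normalized count, 4616, was found in intron 1 of E2f2, a transcription factor of the cell cycle. This peak, 8799 bases long, went from 6282 at ZT0 to 3094 at ZT12 and 5761 at ZT21, with an amplitude of 0.48 ± 0.079. In intron 2 of Dtx4, an E3 ubiquitin ligase of the Deltex family, a peak with a mean of 4225 had an amplitude of 0.39 ± 0.029, and all 4 peaks nearest to Dtx4 were members. Others with means above 2000 lay in introns of Sfxn5, a mitochondrial carrier, and Ankrd50, in an exon of Cars2, the mitochondrial cysteinyl-tRNA synthetase, and upstream of Osgin1, an oxidative stress response gene. The crest in Sfxn5 was late, at 2.71 ± 0.623 h, with the highest count at ZT6. The second highest mean of all dawn-phase peaks, 4400.3, lay between genes near Mir467h, with normalized counts of 4793, 5715, 4803, 4292, 3721, 3001, 3960 and 4917 from ZT0 to ZT21 and an amplitude of 0.35 ± 0.066. Its crest, at 2.30 ± 0.713 h, was late as well. Members became rarer with strength, from 1.63% of peaks with a mean count of 100 to 200 to 0.469% of those with at least 1600, while the share of rhythmic peaks at any phase was 13.5% and 6.59%. Members were between 11.8% and 12.6% of the rhythmic peaks up to a mean count of 1600 and 7.11% of those above it, where they numbered 18.

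Besides Npas2 and Arntl, several other loci held runs of dawn-phase peaks. When members at most 100 kb apart were joined, a distance chosen after the values were seen, 245 of 630 (38.9%) lay in runs of at least 2, and 16 runs held 4 or more. No share of runs is given for the other phase classes or for all tested peaks, so this is not read as particular to dawn. After Npas2, the longest runs by number were 6 members of 16 peaks over Dapk1, a kinase of cell death, and 6 of 8 between genes on chromosome 9 (chr9:115450723-115552146). Runs of 5 lay at Dtx4, at Arntl, upstream of Triqk and over Gm29811 and Npnt, an extracellular matrix protein. At Rnf125, an E3 ubiquitin ligase, and at Lhfpl2 all 4 peaks of the run were members, but a run begins and ends at a member by definition. Of all tested peaks nearest to these genes, 4 of 8 at Rnf125 and 4 of 19 at Lhfpl2 were members. The peak 7624 bases upstream of Rnf125 (amplitude 0.84 ± 0.074) went from 1126 at ZT0 to 398 at ZT12 and 1108 at ZT21. In 5 of the 16 runs, 1 or 2 members held a RORE in the central window.

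About as many of the nearest neighbours outside the class had a dawn phase as had another phase. Of the 630 peaks, 498 had another tested peak within 20 kb, and that neighbour was a member in 125 cases (25.1%, against 1.16% of the neighbours of all tested peaks). Of the 373 neighbours that were not members, 192 (51.5%) had a fitted phase from 21 h to before 3 h, against 17.9% around all tested peaks. For midday-phase peaks, 19.5% of the neighbours were in the same class, and 55.1% of the neighbours outside it had a midday phase.

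Dawn-phase peaks were remote from start sites. The nearest curated start site was 31832 bases away at the median, against 15570 bases for all tested peaks and between 22521 and 24741 bases for the other phase classes. Within 10 kb of a start lay 143 dawn-phase peaks (22.7%), against 41.1% of all tested peaks and 24.6% to 31.7% of the other phase classes. Within 1 kb lay 4.13%, against 19.3% of all tested peaks, 5.24% of midday-phase, 2.77% of dusk-phase and 9.33% of midnight-phase peaks. The low shares near start sites were thus found in all 4 phase classes. Introns held 311 (49.4%) and the space between genes 292 (46.3%), against 40.0% of all tested peaks and 50.3% of midday-phase peaks. They were also somewhat narrower and weaker than the tested peaks as a whole, with a median width of 840 bases against 973 and a median of 233 normalized counts against 313. The median count was 235 in dusk-phase and 184 in midnight-phase peaks. The mean number of CpG dinucleotides in the central window was 4.41, against 7.48 in all tested peaks and 4.39 in midday-phase peaks, close to the number in that other phase class.

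RORE was more frequent in dawn-phase peaks than in the other phase classes. It was present in the central window of 39 of 630 dawn-phase peaks (6.19%), against 12 midday-phase peaks (0.641%), 5 dusk-phase peaks (0.33%), 13 midnight-phase peaks (1.03%) and 306 (0.586%) of all 52187 peaks with a sequence. Motifs were not part of the rule, but regions are not replicates of a condition, and these shares are given without a test. Among RefSeq promoter windows, which are 250 bases long and not matched to the peaks in base composition, 58 of 32851 (0.177%) held a RORE. Over the whole peak, 68 dawn-phase peaks (10.8%) held one, against 1.75% of tested peaks. With 1 more A or T required in front, and with T allowed as the second of the 10 letters and G as the fifth, the share was 9.05% against 0.939%. The share was 3.24% when the ZT3 library was left out and 3.93% without ZT0, among the larger sets of peaks that then met the rule.

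Seen from the element, 133 of the 306 tested peaks with a RORE (43.5%) had a fitted phase from 21 h to before 3 h whatever their amplitude, against 20.7% of the peaks without one. Of the same 306, 39 (12.7%) were members, against 1.14% of the others. The other 30 rhythmic peaks with a RORE had midday (12), midnight (13) or dusk (5) phases. Most dawn-phase peaks thus held no RORE by these letters, 591 of 630. The share also differed within the class, with 7.48% for phases from 21 to 22.5 h, 7.87% from 22.5 h to 0 h, 4.95% from 0 to 1.5 h and 2.92% from 1.5 to 3 h, on 16, 14, 5 and 4 peaks. Members with a RORE had a median amplitude of 0.51, and those without one 0.40.

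**Figure D3:**
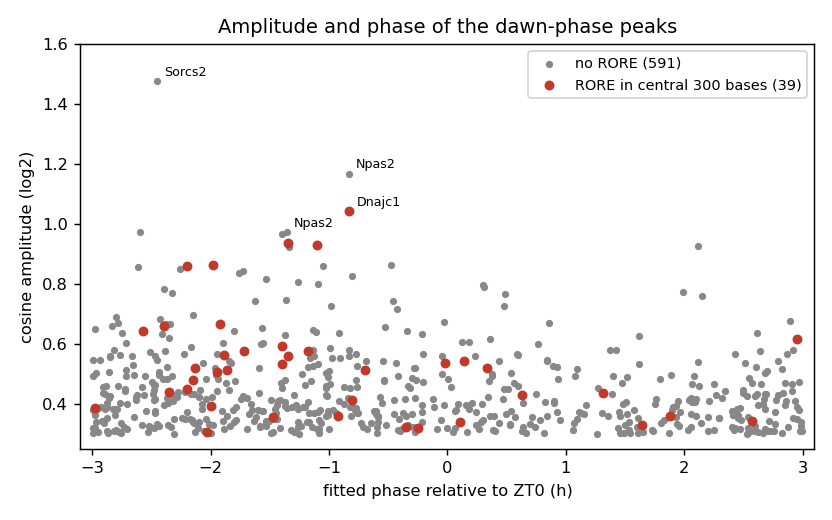
Cosine amplitude (log2) of each of the 630 dawn-phase peaks against its fitted phase in h relative to ZT0; the 39 peaks with a RORE in the central 300 bases are in red and the 4 largest amplitudes are named. Of the 39, 30 had a phase before ZT0, and they ranged from 0.31 to 1.04 in amplitude.

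**Figure D4:**
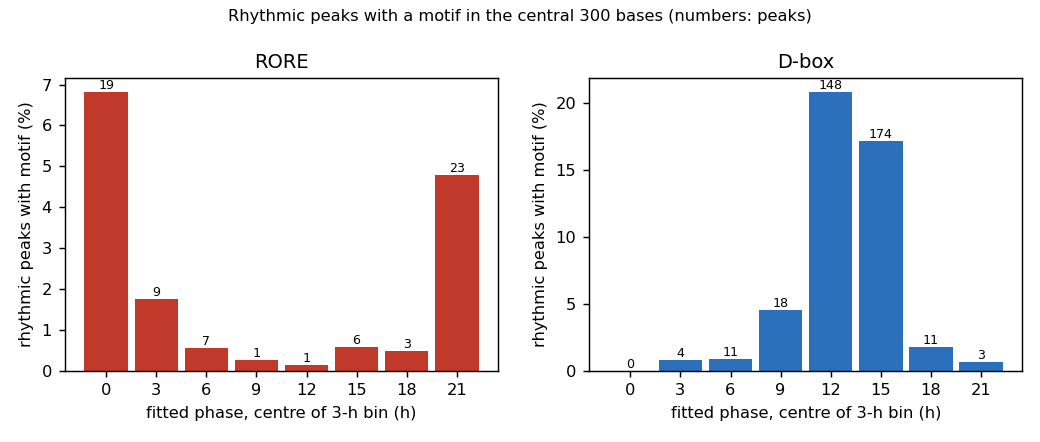
Share (%) of rhythmic peaks with a RORE (left) or a D-box (right) in the central 300 bases, by fitted phase in 3-h bins, with the number of peaks above each bar. RORE shares were 6.81% at 0 h and 4.79% at 21 h and at most 1.76% elsewhere, and D-box shares were 20.8% at 12 h and 17.1% at 15 h and 0% at 0 h.

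ROREs lay close to the middle of the dawn-phase peaks. The 72 sites in whole peaks had a median distance of 114 bases from the centre, against 323.5 bases for the 92 sites in other rhythmic peaks and 272.5 bases for the 768 sites in peaks that were not rhythmic. Within 50 bases of the centre lay 19 of the 72 (26.4%), against 14.1% and 10.9%. Dawn-phase peaks were narrower than the tested peaks as a whole, and the part of the width in these distances was not tested. The free letter of the element was G in 35 of the 72 sites, C in 15, A in 11 and T in 11.

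**Figure D5:**
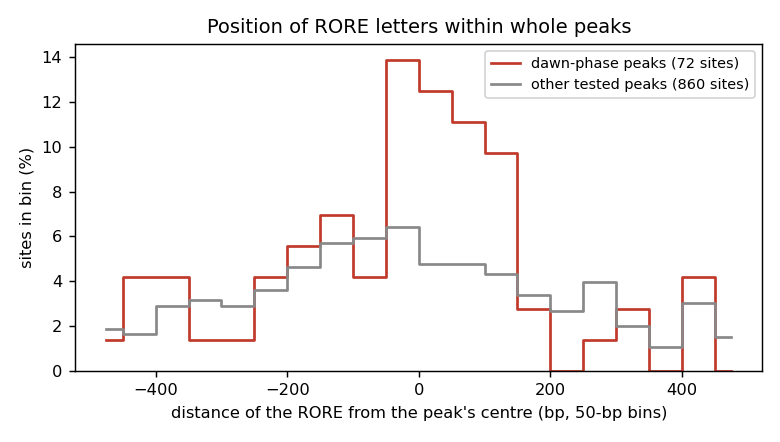
Share (%) of RORE sites per 50-base bin against their distance in bases from the peak's centre, for the 72 sites in dawn-phase peaks (red) and the 860 sites in other tested peaks (grey). In dawn-phase peaks the bins from 50 bases before to 150 bases after the centre held the largest shares.

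Other elements differed less between dawn and midday, or were rarer at dawn. The D-box (TTATGTAA) was present in 2 dawn-phase peaks (0.317%), against 18.8% of dusk-phase peaks, 5.14% of midnight-phase peaks and 1.92% of all tested peaks. The E-box (CACGTG) was found in 3.81%, against 8.33% of midday-phase peaks and 5.75% of all. The hexamer AGGTCA alone was found in 35.4% of dawn-phase peaks, 35.5% of midday-phase peaks and 25.1% of all, and in 31.1% of the dawn-phase peaks without a RORE. GC boxes (GGGCGG) were found in 8.41%, against 16.2% of all and 8.44% of midday-phase peaks. All were searched on both strands of the same windows.

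DR1 shares were close to those of all tested peaks. With up to 1 mismatch in the 12 fixed bases of the direct repeat, 9 dawn-phase peaks (1.43%) held one in the central window, against 1.66% of all tested peaks and 2.46% of midday-phase peaks, and with up to 2 mismatches the shares were 10.3%, 8.61% and 14.6%. In the 2 Npas2 peaks described above the closest match over the whole peak had 2 mismatches. In the Dnajc1, Iyd and Lhfpl2 peaks with a RORE it had 3.

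The limits of the rule cut through a continuous range. Just inside and outside the amplitude limit lay peaks near Krt36 and 1700034J05Rik, both with an amplitude of 0.30 after rounding. At the R2 limit, a peak near Gm15627 with 0.701 was inside and a peak near Mir3473f with 0.699 outside. At the early end, a peak near Tmie with a phase of 21.0 h was inside and a peak near Dapk1 with a phase of 21.0 h and an amplitude of 0.59 was just outside, and at the late end peaks near Pnrc1 (2.99 h) and Etl4 (3.03 h) lay on the 2 sides of the limit. At the count limit, a peak near Psapl1 with a mean count of 100.1 was inside and a peak near Pimreg with 99.6 outside.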

How the data were processed

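PPARγ ChIP-sequencing libraries of 8 time points were used, each grouped by its labelled zeitgeber time. The authors mapped the reads to mm10 with BWA-MEM 0.7.17, called peaks with MACS2 2.1.2, retained those called in 6 or more libraries at a false discovery rate below 0.05, and deposited raw read counts per peak from HTSeq 1.99.2 (versions from the submitters' processing notes). How duplicate reads were handled is not given in the sources used here, and the ZT12 input was not analysed here. Counts were divided by median-of-ratios size factors and fitted by least squares on the log2 scale, with no pseudocount, in Python 3.11.15 with numpy 2.4.6 (the lowest count was 8). The fit was tested on simulated data. Intervals cover counting error only. Totals hold reads in peaks alone, so the full depth is unknown. Peak positions are printed as deposited; whether they count from 0 or 1 is not stated in the file, which could shift a window by 1 base.

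Peaks were placed by their centre on curated RefSeq transcripts of GRCm38.p6, whose 21 chromosomes hold every peak. Motifs were searched in the central 300 bases, 19 in all. The members and the 22 gene lists were chosen with earlier results of these data known. The peaks to be named were the 12 largest amplitudes, the 8 highest means, up to 8 genes with at least 3 members, up to 4 members per gene list and the peaks next to each threshold; neighbours at Npas2 and Arntl and the peaks with a RORE were added after their values were seen. Alternatives were other normalizations (edgeR 4.0.16, limma 3.58.1), other thresholds, cosine models on counts by edgeR's quasi-likelihood method and DESeq2 1.42.0 in place of R2, and each library left out. No P value is given for members, since the rule used every library. The sequence of 1 peak is not reported here.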

Additional observations from a re-analysis of the deposited data

How the results depend on the processing

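The number of dawn-phase peaks, 630, was between 623 and 688 under 5 other normalizations, of which division by library totals kept 539 of the 630 and the other 4 between 586 and 623. It was 359 with a mean count of at least 200, 375 with an R2 of at least 0.8, and 1226 and 159 with amplitude limits of 0.2 and 0.5. In place of the R2 threshold, edgeR's cosine gave 635 (544 shared) and DESeq2's 739 (548 shared), each at an adjusted P value under 0.05. Leaving out 1 library in turn gave between 661 and 1327 peaks. The median phase, 23.2 h, lay between 22.7 h and 23.7 h without 1 of the other libraries, and was 0.179 h without ZT0 and 0.667 h without ZT3. The share with a RORE was 4.16% and 13.8% at the amplitude limits of 0.2 and 0.5, between 3.24% and 6.53% without 1 library, 9.05% with the wider letters and 10.8% over whole peaks. These alternatives for RORE were chosen after seeing the data. The share with a DR1 was 10.3% with up to 2 mismatches and 3.97% over whole peaks, and the share near a start site 4.13% within 1 kb. Of the clock activator peaks, 8 or 9 met the rule whichever library was left out. The cause of these shifts was not tested, other than that more mismatches, whole peaks and looser thresholds admit more sites or peaks by construction. This does not hold for the wider RORE letters, which also require 1 more A or T in front. No paired analysis was possible because each time point has 1 library and the result comes from no test. Weak peaks are limited by counting error, and 1 library per time point leaves differences between pools unmeasured.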
